A study of Homo sapiens with 4 samples.

Results

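The genes described here are the RAB small GTPases, taken as every protein-coding gene in the fractionation table whose symbol is RAB, a number and at most a letter and a further digit. There were 63 such genes among 51740 gene rows, and 61 of them had an adjusted p-value. To ask in which compartment RNAs reside, wildtype HEK293T cells, a line derived from human embryonic kidney that expresses SV40 large T antigen, were crosslinked with formaldehyde and divided into nuclear and cytoplasmic fractions. RNA of each fraction was sequenced from 2 biological replicates, which gave 2 nuclear and 2 cytoplasmic libraries. Each took 400 ng of RNA into a ribodepletion and stranded kit and was sequenced as paired-end reads of 100 nt. Because the input mass was equal, every value is relative to the other RNA of its fraction and counts no molecules per cell. In such bulk samples fewer cells and less RNA per cell cannot be told apart.

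RAB proteins are molecular switches that give membranes their identity. In the GTP-bound form, set by a guanine nucleotide exchange factor (GEF), a RAB sits on a membrane through a lipid anchor and recruits effectors such as motors, tethers and coats. A GTPase-activating protein (GAP) turns it off, and GDP dissociation inhibitor (GDI) takes it back from the membrane. The anchor is added by RAB geranylgeranyl transferase after an escort protein has presented the new RAB to it. Different members mark the endoplasmic reticulum and Golgi, early, recycling and late endosomes, lysosomes, autophagosomes and secretory vesicles, and many exist as closely related paralogs. The proteins act in the cytoplasm, whereas the values below are of their RNAs.

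The deposited table holds a mean normalized count over all libraries, a log2 fold change of cytoplasm over nucleus, its standard error and an adjusted p-value for each gene. Counts of the single libraries were worked back from these values for all 63 RAB genes and divided by the size factors that scaled the libraries in the DESeq2 fit, and these are the normalized counts given for each library. The libraries of a fraction are called deeper and shallower by their size factor, the deeper one is given first throughout, and the replicate number of each is not known. Implied totals were between 21567507 and 24481541 counts on genes. Over the 48 RAB genes with a mean normalized count over 50, the higher library of a fraction exceeded the lower by a median of 1.09-fold (nuclear) or 1.10-fold (cytoplasmic). The largest such ratios were 1.56 between the nuclear libraries for RAB40B and 2.26 between the cytoplasmic libraries for RAB30. Markers listed for the line were present, with mean normalized counts of 18261 for VIM, 13195 for NEFL, 16264 for NEFM, 163 for INA and 63.1 for PAX2. Among genes the line should lack, HBB and CD3E each had a mean of 0.293, ALB of 0.793 and PTPRC of 1.76.

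RAB transcripts were spread over both fractions and did not behave as a single class. In the authors' DESeq2 test, calls were made at adjusted p-values up to 0.01, and each was named after the fraction with more normalized counts. Such a call does not mean a larger share of that fraction's RNA, because the normalized counts of the fractions have different totals. By this rule 22 of the 61 tested RAB genes (36.1%) were called cytoplasmic and 10 (16.4%) nuclear. Across all 23333 tested genes the same rule called 25.9% cytoplasmic and 26.5% nuclear, and across the 15336 tested protein-coding genes it called 35.6% cytoplasmic and 28.4% nuclear. The share of cytoplasmic RAB genes was thus near that of protein-coding genes. The median log2 fold change of the RAB genes was 0.38, against 0.11 for tested protein-coding genes and -0.12 for all tested genes. Both libraries of one fraction lay beyond both of the other in all 32 called genes, and also in 10 of the 16 uncalled genes with a mean normalized count over 50. Single libraries were not worked back for all genes, so the share over all genes is not known. The separation is therefore not read as a trait of the RAB genes. Called genes that differed by 2-fold or more numbered 15 cytoplasmic and 5 nuclear, or 24.6% and 8.2% of the tested RAB genes. The same limit held 19.3% and 20.6% of all tested genes and 25.6% and 19.8% of tested protein-coding genes.

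**Figure D1:**
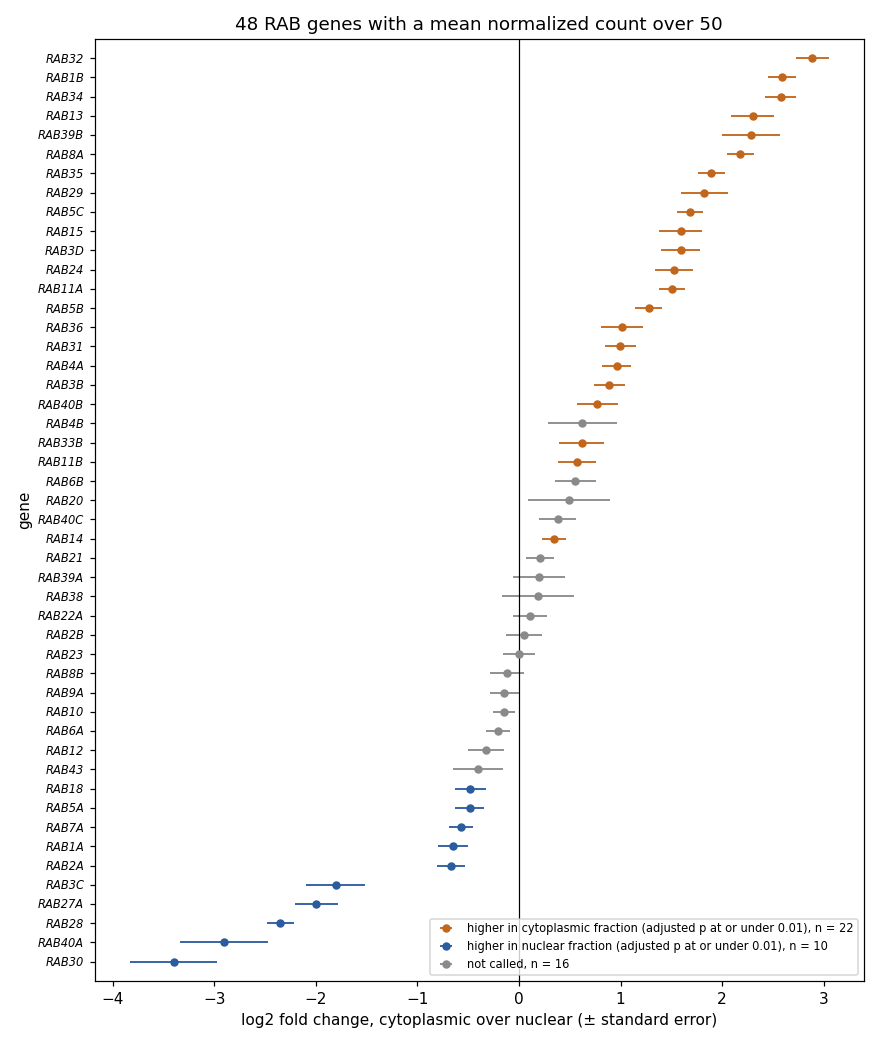
Log2 fold change of cytoplasmic over nuclear RNA on the horizontal axis for the 48 RAB genes whose mean normalized count exceeded 50, sorted, with the standard error of the fit as the bar and 2 libraries per fraction. The 22 cytoplasmic genes run from RAB14 at 0.34 to RAB32 at 2.89, and the 10 nuclear genes from RAB18 at -0.48 to RAB30 at -3.40, with a gap between RAB2A at -0.67 and RAB3C at -1.80.

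The calls depend on how the libraries were scaled. The size factors made the normalized counts sum to 28705052 for cytoplasmic and 18136040 for nuclear RNA, so scaling to equal totals lowers every log2 fold change by 0.66. With equal totals, 14 of the 61 tested RAB genes were called cytoplasmic and 20 nuclear, where the background was 16.2% and 38.3% of all tested genes. Of the 15336 tested protein-coding genes, 3441 were then cytoplasmic and 6527 nuclear. The 14 were all among the 22, the 10 nuclear genes were all kept, and 10 further genes became nuclear (RAB21, RAB22A, RAB2B, RAB23, RAB8B, RAB9A, RAB10, RAB6A, RAB12 and RAB43). The median of the RAB genes then changed sign, to -0.28. Directions of the genes below are those of the deposited scale, and the 8 cytoplasmic calls that equal totals do not keep are RAB36, RAB31, RAB4A, RAB3B, RAB40B, RAB33B, RAB11B and RAB14.

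The role lists below stand beside 35.6% cytoplasmic and 28.4% nuclear calls among tested protein-coding genes. No list was tested against these shares. Of the 16 RABs of the endoplasmic reticulum and Golgi, 15 were tested, and 4 (26.7%) were called cytoplasmic and 4 (26.7%) nuclear. Their median log2 fold change was 0.05. RAB1B (chromosome 11, 66268590 to 66277492 on hg38), which drives transport from the endoplasmic reticulum to the Golgi, had 456 and 509 normalized counts in the nuclear and 2633 and 3174 in the cytoplasmic libraries. Both cytoplasmic libraries lay far above both nuclear ones, and the log2 fold change was 2.59 ± 0.14 (SE; DESeq2 adjusted p = 2.46e-74). RAB34 (chromosome 17, 28714281 to 28718429), which acts in Golgi and lysosome positioning and in ciliogenesis, had 352 and 464 normalized counts in the nuclear and 2369.7 and 2494 in the cytoplasmic libraries and a log2 fold change of 2.58 ± 0.15 (DESeq2 adjusted p = 6.12e-65). RAB36 reached 1.01 ± 0.21, and RAB33B, a Golgi RAB that binds the autophagy factor ATG16L1, was called at 0.62 ± 0.22 with a DESeq2 adjusted p of 0.00996, just inside the threshold.

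At the other end stood RAB30 (chromosome 11, 82973133 to 83071923), a Golgi RAB. It had 208 and 151 normalized counts in the nuclear libraries and 10.6 and 23.9 in the cytoplasmic libraries. All 4 values were separated by fraction, although the cytoplasmic libraries differed between themselves by 2.26-fold on 9 and 18 reads. Its log2 fold change of -3.40 ± 0.43 was the lowest of the tested RAB genes (DESeq2 adjusted p = 1.07e-14). RAB2A, which acts between the endoplasmic reticulum and Golgi and in fusion with lysosomes, had 1298 and 1305 nuclear and 847 and 788 cytoplasmic normalized counts and a log2 fold change of -0.67 ± 0.14. RAB1A was at -0.65 ± 0.15 and RAB18, found on the endoplasmic reticulum and lipid droplets, at -0.48 ± 0.15, both called nuclear (DESeq2 adjusted p = 1.91e-05 and 0.00292).

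Several Golgi members with deep counts did not pass the test. RAB6A (chromosome 11, 73675638 to 73761137), which directs retrograde and post-Golgi transport, had 2026 and 2065 nuclear and 1758 and 1798 cytoplasmic normalized counts and a log2 fold change of -0.20 ± 0.12 (DESeq2 adjusted p = 0.128). The fractions did not overlap for RAB6A, but the difference was small. RAB6B, its neuron-enriched paralog, stood just outside the threshold at 0.55 ± 0.20 (DESeq2 adjusted p = 0.0113). RAB2B was at 0.05 ± 0.18 with overlapping fractions, and RAB43 at -0.40 ± 0.25.

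Early endosome RABs gave 3 cytoplasmic calls (37.5%) and 1 nuclear call (12.5%) among 8 tested genes, with a median log2 fold change of 0.36. The RAB5 proteins control the fusion of early endosomes. RAB5C (chromosome 17, 42124978 to 42155044) had 847 and 806 nuclear and 2539.7 and 2776 cytoplasmic normalized counts, RAB5B had 807 and 926 nuclear and 2071 and 2126 cytoplasmic, and RAB5A had 1083 and 1020.0 nuclear and 803 and 697 cytoplasmic. RAB5C and RAB5B were thus higher in both cytoplasmic libraries and RAB5A in both nuclear libraries. Their log2 fold changes were 1.68 ± 0.12, 1.28 ± 0.13 and -0.49 ± 0.15, with DESeq2 adjusted p-values of 1.62e-40, 9.51e-22 and 0.00181. RAB31, which works between the trans-Golgi network and endosomes, was cytoplasmic at 1.00 ± 0.15, while its paralog RAB22A was at 0.11 ± 0.16 with overlapping fractions. RAB21, which carries integrins, was at 0.20 ± 0.14 and RAB20 at 0.49 ± 0.40, and neither passed the test.

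Recycling RABs gave 6 cytoplasmic calls (66.7%) and no nuclear call among 9 tested genes, beside 35.6% and 28.4% of tested protein-coding genes. The list is small and the difference was not tested. Its median log2 fold change was 0.62. RAB35 (chromosome 12, 120095099 to 120117502), which serves fast recycling and cytokinesis, had 535 and 552 nuclear and 1928 and 2116 cytoplasmic normalized counts. RAB11A (chromosome 15, 65726054 to 65891989), the marker of the slow recycling endosome, had 996 and 975 nuclear and 2637 and 2974 cytoplasmic. In both genes the libraries of a fraction lay close together and every cytoplasmic value was more than 2-fold above every nuclear value. The log2 fold changes were 1.90 ± 0.13 for RAB35 and 1.51 ± 0.12 for RAB11A (DESeq2 adjusted p = 3.46e-45 and 8.55e-33). RAB15 was at 1.59 ± 0.21, and RAB4A, which returns receptors from early endosomes, at 0.96 ± 0.14. RAB11B at 0.57 ± 0.19 and RAB14, which links the Golgi and endosomes, at 0.34 ± 0.12 were smaller calls (DESeq2 adjusted p = 0.00423 and 0.00680). RAB12 was at -0.32 ± 0.18 and RAB4B at 0.62 ± 0.34, and neither passed the test. With equal totals the recycling list held 3 cytoplasmic calls and 1 nuclear call, beside 3441 and 6527 of the 15336 tested protein-coding genes.

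Late endosome, lysosome and autophagy RABs gave 4 cytoplasmic calls (40.0%) and 1 nuclear call (10.0%) among 10 tested genes of 11. Their median log2 fold change was 0.37. RAB32 (chromosome 6, 146543833 to 146554953), which serves lysosome-related organelles such as melanosomes, had 167 and 162 nuclear and 1249 and 1191 cytoplasmic normalized counts. The replicates nearly coincided, and its log2 fold change of 2.89 ± 0.16 was the highest among the tested RAB genes (DESeq2 adjusted p = 3.33e-71). RAB39B (chromosome X, 155258235 to 155264491), a gene of X-linked intellectual disability and early parkinsonism, had 57.4 and 46.2 nuclear and 273 and 233 cytoplasmic normalized counts. Its log2 fold change was 2.29 ± 0.28. RAB29, an activator of the kinase LRRK2, reached 1.83 ± 0.23 and RAB24, an atypical RAB of autophagy, 1.53 ± 0.19.

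RAB7A (chromosome 3, 128693669 to 128825942), the main RAB of late endosomes and lysosomes, went the other way. It had 3298 and 2919 nuclear and 2101 and 2085 cytoplasmic normalized counts, and both nuclear libraries lay above both cytoplasmic ones. The log2 fold change was -0.57 ± 0.12 (DESeq2 adjusted p = 4.40e-06), or 1.49-fold higher in the nuclear fraction on the deposited scale. With equal totals the log2 fold change was -1.23. RAB9A, which returns receptors from late endosomes to the Golgi, was at -0.14 ± 0.14, RAB38, a paralog of RAB32, at 0.19 ± 0.35 and RAB39A at 0.20 ± 0.26, and none of these passed the test.

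Exocytic RABs gave 4 cytoplasmic (30.8%) and 2 nuclear calls (15.4%) among 13 tested genes, with a median log2 fold change of 0.28. RAB13 (chromosome 1, 153981617 to 153986358), which acts at epithelial junctions, had 99.9 and 102 nuclear and 524 and 470.4 cytoplasmic normalized counts and a log2 fold change of 2.30 ± 0.21 (DESeq2 adjusted p = 5.96e-27). RAB8A (chromosome 19, 16111889 to 16134234), which serves post-Golgi exocytosis and primary cilium growth, had 555 and 503 nuclear and 2319 and 2477 cytoplasmic normalized counts, with 2.18 ± 0.13 on the log2 scale (DESeq2 adjusted p = 7.67e-61). The secretory vesicle members RAB3D and RAB3B were cytoplasmic at 1.59 ± 0.19 and 0.89 ± 0.15. RAB10, which moves GLUT4 vesicles, was counted most deeply of the 63 genes, which is no level per length, with 3319 and 3339 nuclear and 2907 and 3099.7 cytoplasmic normalized counts. Its fractions did not overlap, yet its log2 fold change of -0.15 ± 0.11 did not pass the test (DESeq2 adjusted p = 0.246). RAB8B was at -0.12 ± 0.17 with overlapping fractions.

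Both nuclear calls of the exocytic list were large. RAB27A (chromosome 15, 55202966 to 55319113), needed for the release of melanosomes and lytic granules and mutated in Griscelli syndrome, had 571 and 502 normalized counts in the nuclear and 143 and 126 in the cytoplasmic libraries. RAB3C (chromosome 5, 58582221 to 58859394) had 283 and 214 nuclear and 79.7 and 62.3 cytoplasmic. Every nuclear library exceeded every cytoplasmic one by more than 2-fold in both genes. The log2 fold changes were -2.00 ± 0.21 for RAB27A and -1.80 ± 0.29 for RAB3C (DESeq2 adjusted p = 7.71e-21 and 1.73e-09).

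The remaining role list joins RAB23, a regulator of hedgehog signalling, RAB28, whose loss causes cone-rod dystrophy, and the RAB40 proteins, which carry a SOCS box and serve as substrate adaptors of a cullin 5 ubiquitin ligase. Of these 5 genes 1 (20.0%) was cytoplasmic and 2 (40.0%) were nuclear. RAB28 (chromosome 4, 13361354 to 13484365) had 2454 and 2273 nuclear and 442 and 486 cytoplasmic normalized counts. On the deposited scale it was 5.10-fold higher in the nuclear fraction. Its log2 fold change was -2.35 ± 0.14 (DESeq2 adjusted p = 1.59e-65), and -3.01 with equal totals. RAB40A (chromosome X, 103499130 to 103519489) had 128 and 133 nuclear and 18.8 and 15.9 cytoplasmic normalized counts and a log2 fold change of -2.91 ± 0.43 (DESeq2 adjusted p = 6.18e-11). RAB40C was at 0.38 ± 0.18 and did not pass the test (DESeq2 adjusted p = 0.0599). RAB23 was even between the fractions, with 704 and 609 nuclear and 626 and 689 cytoplasmic normalized counts.

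Close paralogs parted in some sets. The RAB genes held 16 sets of close paralogs, and in 4 of them one member was called cytoplasmic and another nuclear. These were the RAB1, RAB5, RAB3 and RAB40 sets. RAB1B exceeded RAB1A by 3.24 ± 0.20 log2 units (difference and combined standard error), RAB3D exceeded RAB3C by 3.40 ± 0.35, and RAB40B exceeded RAB40A by 3.68 ± 0.48. RAB5C exceeded RAB5A by 2.17 ± 0.19. In the RAB8 set, RAB8A and RAB13 stood 2.30 ± 0.21 and 2.42 ± 0.27 above RAB8B, and RAB32 stood 2.70 ± 0.39 above RAB38. Within sets, 23 pairs had both means over 50, and 19 of them differed by more than 2 combined standard errors. The share among other pairs of genes was not computed, and pairs of a set share members. The count is therefore not read as a trait of RAB paralogs. The differences between paralogs are descriptions, since the fits of both genes come from the same 4 libraries. They do not move with the scaling, which shifts every gene alike.

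**Figure D2:**
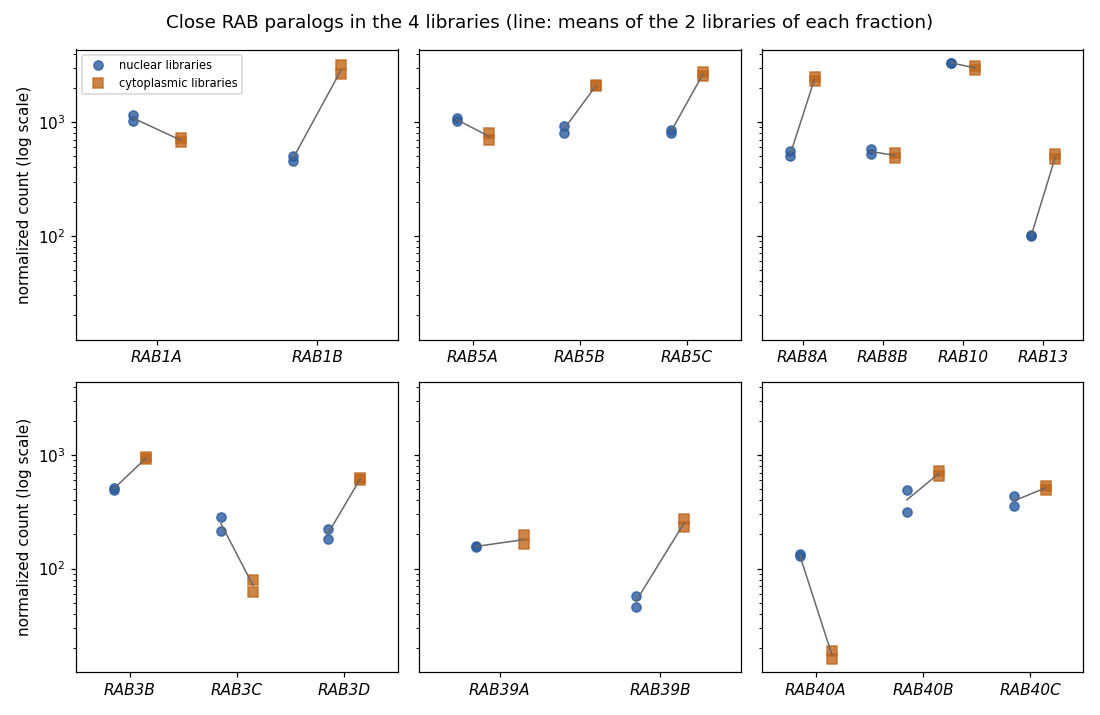
Normalized counts of close RAB paralogs on a log scale, with a point for each of the 2 nuclear (circles) and 2 cytoplasmic (squares) libraries and a line between the means of the fractions. Lines slope up for RAB1B, RAB5B, RAB5C, RAB8A, RAB13, RAB3B, RAB3D, RAB39B and RAB40B and steeply down for RAB3C and RAB40A, where the cytoplasmic libraries of RAB40A held 18.8 and 15.9 normalized counts.

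RAB1A and RAB1B, with opposed values, differ enough in sequence for most exonic reads to be told apart. Their coding sequences in GENCODE 44 were 76.5% identical over 603 aligned bases. The first 90 coding bases of RAB1B and the aligned bases 10 to 99 of RAB1A are shown because they hold the site that binds the nucleotide phosphates, with capitals at the 18 bases that differ.
RAB1A: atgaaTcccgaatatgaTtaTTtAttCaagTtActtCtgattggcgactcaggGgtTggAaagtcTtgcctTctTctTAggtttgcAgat
RAB1B: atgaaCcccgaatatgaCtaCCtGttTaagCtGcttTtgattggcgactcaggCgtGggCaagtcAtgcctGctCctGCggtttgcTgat
The differences were spread along the stretch, and in the canonical mRNA 0.111% of the 100 nt windows of RAB1B and 0% of those of RAB1A occurred in another gene.

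The intronless copies of RAB6A gave the opposite case. RAB6C (chromosome 2, 129979666 to 129982738) and RAB6D (chromosome 2, 131360492 to 131364168) differed from each other at 4 of 762 coding bases. Their first 90 coding bases are shown beside those of RAB6A, with capitals at the bases where RAB6A differs from the copies.
RAB6A: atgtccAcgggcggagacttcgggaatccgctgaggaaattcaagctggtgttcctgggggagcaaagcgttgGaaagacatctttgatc
RAB6C: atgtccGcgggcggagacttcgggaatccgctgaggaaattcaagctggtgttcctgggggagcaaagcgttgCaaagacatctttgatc
RAB6D: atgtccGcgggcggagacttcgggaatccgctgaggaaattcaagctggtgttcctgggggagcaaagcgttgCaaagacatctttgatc
The copies were identical to each other over this stretch and differed from RAB6A at 2 bases. RAB6C had 9 and 11 reads in the nuclear libraries and 5 and 3 in the cytoplasmic libraries, and RAB6D had 7 and 7 reads in the nuclear libraries and 10 and 14 in the cytoplasmic libraries. In the mRNA, 31.7% of the 100 nt windows of RAB6C and 25.5% of those of RAB6D occurred in another gene, so the values of both are uncertain. Neither passed the test (DESeq2 adjusted p = 0.643 and 0.187). Other members shared windows too. The share was 97.7% for RAB4B and 90.6% for RAB43, each with a readthrough gene of a kind the authors removed before counting, 54.8% for RAB13, 29.5% for RAB5C and 11.9% for RAB40A. Part of their reads may belong to the other gene.

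Members with few reads could not be placed. Of the tested genes, 13 had a mean normalized count of 50 or less, between 1.71 and 37.3, and 0 of these were called in the authors' DESeq2 test. The reads given here are not divided by the size factors, which were larger for the nuclear libraries, so equal reads are not equal normalized counts. On the deposited scale RAB9B was at 0.53 ± 0.50 and RAB25 at 0.05 ± 1.28. RAB9B had 39 and 38 reads in the nuclear libraries and 39 and 32 in the cytoplasmic libraries, and RAB27B, a secretory paralog of RAB27A, had 24 and 31 reads in the nuclear libraries and 39 and 23 in the cytoplasmic libraries. RAB3A, the main RAB of synaptic vesicles, had 35 and 16 reads in the nuclear libraries and 23 and 16 in the cytoplasmic libraries. The libraries of both fractions overlapped in RAB3A. RAB25, an epithelial relative of RAB11, had 10 and 4 reads in the nuclear libraries and 4 and 5 in the cytoplasmic libraries. RAB33A had 3 and 2 reads in the nuclear libraries and 4 and 5 in the cytoplasmic libraries, and RAB7B had 2 and 7 reads in the nuclear libraries and 2 and 2 in the cytoplasmic libraries. These counts are too low to order. RAB17, RAB19, RAB26, RAB37 and RAB44 held between 1 and 31 reads in a library. The 2 genes without an adjusted p-value were RAB41, with 1 read in 1 cytoplasmic library, and RAB42, with 1 and 2 reads in the nuclear libraries and 1 and 1 in the cytoplasmic libraries. At this depth small and moderate differences were not detectable in the tested genes with few reads, nor any difference in the 2 without an adjusted p-value.

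Gene length went along with the fraction ratio. A gene's span runs from its first to its last annotated base, and its count includes introns. Over the 48 RAB genes with a mean over 50, the Spearman correlation of span with log2 fold change was -0.62, and over 12134 protein-coding genes with such a mean it was -0.71. Over all 61 tested RAB genes it was -0.45. Exonic length gave -0.28 over the 48 genes, and the GC content of the coding sequence gave 0.44. These correlations are across genes, which share the same 4 libraries and are not replicates.

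When protein-coding genes with a mean over 50 were split by span at 21.3 and 66.0 kb into equal parts, the shortest held 12 RAB genes, with a median log2 fold change of 1.68. Of these 9 were cytoplasmic and 1, RAB40A, was nuclear, where 77.0% and 7.02% of all protein-coding genes of that part were. The middle part held 23 RAB genes with a median of 0.34, 10 of them cytoplasmic and 3 nuclear, beside 43.6% and 24.2% of protein-coding genes. The longest part held 13 with a median of -0.20, 3 of them cytoplasmic and 6 nuclear, beside 10.3% and 68.0%. The medians of all protein-coding genes in the same parts ran from 1.502 over 0.29 to -0.98. Among the RAB genes with the longest annotated spans, RAB11A spans 166 kb and RAB31 154 kb, and both were cytoplasmic, whereas RAB3C at 277 kb, RAB28 at 123 kb and RAB27A at 116 kb were nuclear. These spans take in every transcript annotated in GENCODE 44 and were not measured for single transcripts. The main transcript of a gene such as RAB11A may therefore cover less. RAB40A was nuclear at a span of 20.4 kb, where RAB40B and RAB40C span 43.7 and 39.9 kb. Within paralog pairs with both means over 50, the member with the higher log2 fold change had the shorter span in 16 of 23 pairs. The share among other pairs of genes was not computed. RAB11A against RAB11B and RAB31 against RAB22A were among the exceptions.

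**Figure D3:**
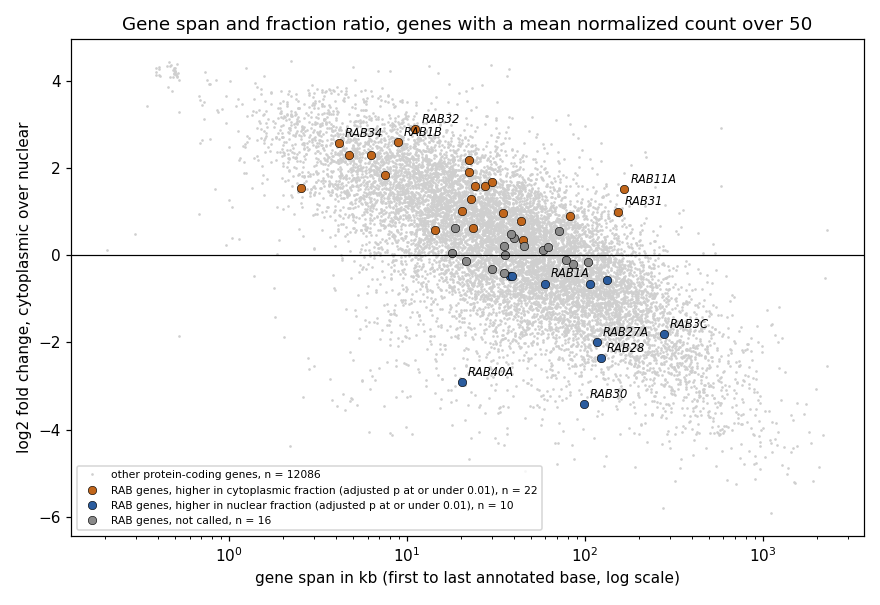
Gene span in kb on a log scale against the log2 fold change of cytoplasmic over nuclear RNA, for protein-coding genes whose mean normalized count exceeded 50, with RAB genes as large points coloured by call and other genes in grey. RAB genes follow the downward cloud (Spearman correlation -0.62 over 48 genes), with RAB40A and RAB30 low and RAB11A and RAB31 high among RAB genes of like annotated span. Spans are over all annotated transcripts.

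The machinery that acts on RAB proteins was listed separately, and 140 of its 146 genes were tested. Of these 41 (29.3%) were cytoplasmic and 57 (40.7%) nuclear, beside 35.6% and 28.4% of tested protein-coding genes, with a median log2 fold change of -0.28. A mean over 50 was reached by 133 of the 140. Among protein-coding genes with such a mean, 43.6% were cytoplasmic and 33.0% nuclear. Activators (GEFs) gave 15 cytoplasmic and 21 nuclear calls among 50 tested genes, GAPs 8 and 22 among 41, and effectors 15 and 13 among 44. The largest called cytoplasmic values among genes with a mean over 50 were those of TRAPPC5 at 3.12 ± 0.16, TRAPPC1 at 2.94 ± 0.18 and TRAPPC2L at 2.55 ± 0.17, small subunits of the TRAPP complex, the activator of RAB1 (DESeq2 adjusted p = 4.87e-82, 5.12e-61 and 2.60e-49). TRAPPC5 had 188 and 168 nuclear and 1428 and 1669.8 cytoplasmic normalized counts, with no overlap. Among the other tested TRAPP subunits, TRAPPC3, TRAPPC4, TRAPPC6A, TRAPPC6B and TRAPPC11 were also cytoplasmic. TRAPPC9 (-2.55), TRAPPC12 (-0.85), TRAPPC8 (-0.70) and TRAPPC10 (-0.44) were nuclear, and TRAPPC2 and TRAPPC13 were not called. The largest nuclear values among genes with a mean over 50 were those of RIMS2, a presynaptic RAB3 effector, at -3.66 ± 0.27, RABGAP1L, a GAP, at -3.05 ± 0.11, and BICD1, a dynein adaptor that binds RAB6, at -3.00 ± 0.13 (DESeq2 adjusted p = 4.51e-42, 3.41e-170 and 7.49e-109). RIMS2 had 507 and 497 nuclear and 42.2 and 37.1 cytoplasmic normalized counts.

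Genes that anchor and recycle RAB proteins, named after their values were seen, also parted. GDI2, a GDP dissociation inhibitor, was cytoplasmic at 1.44 ± 0.11 (DESeq2 adjusted p = 2.13e-38). RABGGTA, the alpha subunit of geranylgeranyl transferase, was cytoplasmic at 1.39 ± 0.18, and the beta subunit RABGGTB at 0.13 ± 0.13 did not pass the test (DESeq2 adjusted p = 0.398). CHM, the escort protein lost in choroideremia, was nuclear, with 2608 and 2521 nuclear and 972 and 994 cytoplasmic normalized counts and a log2 fold change of -1.38 ± 0.12 (DESeq2 adjusted p = 3.69e-29).

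Both lists of other small GTPases given here had higher medians than the RAB genes. The ARF and ARL list gave 16 cytoplasmic (69.6%) and 3 nuclear (13.0%) calls among 23 tested genes with a median log2 fold change of 1.13. The RAS list gave 10 (45.5%) and 5 (22.7%) among 22 with a median of 0.74. Among tested protein-coding genes 35.6% were cytoplasmic and 28.4% nuclear. With a mean over 50, which all 23 tested ARF and ARL genes had, the shares of protein-coding genes were 43.6% and 33.0%. With equal totals the ARF and ARL list held 14 and 7 calls (median 0.47), the RAS list 6 and 6 (median 0.07), and the RAB median was -0.28. Of the 15336 tested protein-coding genes, 3441 were then cytoplasmic and 6527 nuclear (median -0.55). The differences between these lists and the RAB genes were not tested, and each list spread widely. RAB genes ran from -3.40 to 2.89 and the ARF and ARL list from -4.04 to 3.22.

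**Figure D4:**
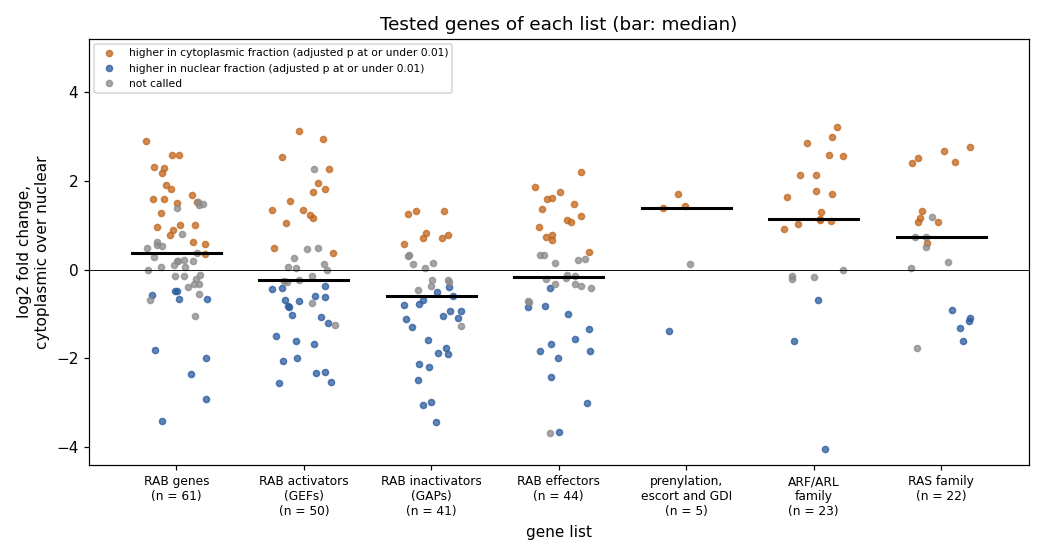
Log2 fold change of cytoplasmic over nuclear RNA for the tested genes of each list, with a point per gene coloured by call, a bar at the median and horizontal scatter added only to separate points. The medians run from -0.60 for GAPs over 0.38 for the 61 RAB genes and 1.13 for the ARF and ARL family to 1.39 for the anchoring and recycling genes, and every list other than the last of these holds at least 2 genes called in each direction.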

How the data were processed

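RNA of nuclear and cytoplasmic fractions was sequenced with 2 libraries each. Per the methods, the authors aligned reads to hg38 with STAR, counted them per gene over exons and introns with featureCounts 2.0.2 (minimum overlap 20) on a custom GENCODE 34 annotation without overlapping stretches or readthrough transcripts, and compared fractions with DESeq2. Because introns count, a value sums spliced and unspliced RNA. The deposited mean normalized count is a signal averaged by the authors over 4 libraries. The deposited fold change and standard error are on the log2 scale, the authors' statistic is a Wald score, and the p-value and adjusted p-value are the authors' own. A gene was called at an adjusted p of at most 0.01, the study's threshold. These columns are the comparison itself, so the calls are those of the authors' test, and the table holds no column of a single library.

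The deposited means are whole-number combinations of 4 steps, each the inverse of 4 times a library's size factor (1.34 and 1.19 nuclear, 0.853 and 0.755 cytoplasmic). All 2731 distinct means under 6 had exactly 1 combination. For the other genes the 4 counts were those that gave back the mean, and, in a negative binomial fit, the fold change and standard error. For the 54 RAB genes with a mean of 6 or more the fold change was met within 1.26e-07, and in the 33 of them with more than 1 candidate the next best missed by at least 1272 times the best one's misfit. Steps were assigned to fractions by the sign of the fold change. This recovery was tested on simulated data. The p-values rest on 2 replicates per fraction and do not measure the spread of a gene's own replicates alone. RAB32 and RAB34 had dispersions of 0.0094 and 0.0096 in the negative binomial fit. Their nuclear libraries differed by 1.03-fold and 1.32-fold, and their cytoplasmic libraries by 1.05-fold in both genes.

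Members, role lists, paralog sets and alternatives were chosen with earlier results of these data known. RAB genes named with values were the 10 largest called changes in each direction, the 5 highest means and tested paralogs. Uncalled genes with a mean over 50 and genes without an adjusted p were also named. Other machinery was named by the 3 largest changes each way, with the remaining TRAPP subunits added after their values were seen. Another GTPase list and a gene of the machinery are not reported here. Spans, exons and coding sequences came from GENCODE 44 on hg38. Alternatives were equal library totals, centring on protein-coding genes, a minimum mean of 50, Bonferroni adjustment, log2 fold change limits of 0.5 and 1, no filter, bounds at a floor of 3 counts, inverse-variance weights and leaving out each library (called at the largest unadjusted p of a called gene, 0.00524). Python 3.11.15, numpy 2.4.6, scipy 1.17.1, pandas 2.3.3 and Biopython 1.88 were used.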

Additional observations from a re-analysis of the deposited data

How the results depend on the processing

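Scaling to equal library totals changed most. The cytoplasmic count of RAB genes went from 22 to 14 and the nuclear count from 10 to 20, the median from 0.38 to -0.28, the cytoplasmic count of the RAB machinery from 41 to 26 and the nuclear from 57 to 89, and its median from -0.28 to -0.94. Calls among the 15336 tested protein-coding genes went from 5453 to 3441 cytoplasmic and from 4349 to 6527 nuclear. With equal totals 17 tested RAB genes changed sign. Those called under either scaling were RAB33B (-0.045), RAB11B (-0.088) and RAB14 (-0.32), all then uncalled, and RAB21 (-0.46), RAB22A (-0.56), RAB2B (-0.61) and RAB23 (-0.66), which became nuclear calls. This follows from the shift of 0.66 common to all genes. Centring on protein-coding genes gave 18 cytoplasmic and 13 nuclear RAB genes and moved the median of the RAB genes to 0.16 and that of the machinery to -0.50. Nuclear RAB calls were 5 with Bonferroni adjustment and 5 with an absolute log2 fold change over 1. The correlation of span with log2 fold change was -0.45 over the 61 tested genes, -0.62 with a mean over 50 and -0.20 with exonic length in its place. Leaving out 1 library, with each gene's dispersion held and the lone library of a fraction assumed to vary likewise, gave 18 to 20 cytoplasmic and 8 to 9 nuclear RAB genes and a median of 0.34 to 0.55. Of the 32 calls 26 were kept in all 4 such fits. RAB33B, RAB11B, RAB14 and RAB18 lost their call without any 1 of the libraries, RAB40B without the shallower nuclear library (log2 fold change 0.49), and RAB5A without the deeper nuclear (-0.44) or the shallower cytoplasmic library (-0.39). RAB6B was called without the deeper nuclear library (0.72). No paired analysis was possible because the replicate number of each recovered library is not known. With 2 libraries per fraction, small differences at low counts were not detectable.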
